A study of Mus musculus with 4 samples.

Results

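Transcripts of 9 genes of coagulation and plasminogen activation were measured in EpH4 cells, a mouse mammary epithelial line: F3, Tfpi, Tfpi2, Thbd, Procr, Plau, Plaur, Plat and Serpine2. They were taken by name from a table of 25413 genes, all 9 were found there, and no other gene of that table overlaps any of them. The groups were wild-type cells exposed to PM2.5 (airborne particles of the fine size class) in 2 libraries and untreated wild-type control cells in 2 libraries. Both groups were grown as flat (2D) cultures, carry no stated allele, and share 1 batch value in the labels, which give neither the dose nor the duration of the exposure. The labels do not say that libraries of a group came from separate cultures, so p-values measure the spread between these libraries, which may be technical.

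The extrinsic pathway of coagulation is started by tissue factor, which binds factor VII and leads to activation of factor X and then thrombin. Tissue factor pathway inhibitor shuts down the complex of tissue factor with factor VII. Thrombomodulin binds thrombin and turns it towards activating protein C, and the endothelial protein C receptor presents protein C to that complex. Urokinase and tissue-type plasminogen activator convert plasminogen to plasmin, which digests fibrin and matrix; the urokinase receptor holds urokinase at the cell surface, and serpins block both activators. In the mammary gland these enzymes are best known for remodelling of the epithelium and its matrix, for example during involution.

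PM2.5-treated cells held far less transcript of Tfpi, the inhibitor of the tissue factor complex, at 0.109 of the control level, and more of Thbd (thrombomodulin, 2.99-fold), Plau (urokinase, 3.57-fold) and Plat (tissue-type activator, 2.14-fold). F3 (tissue factor), Procr (endothelial protein C receptor) and Plaur (urokinase receptor) did not pass the threshold, an adjusted p of 0.05 in edgeR's quasi-likelihood test with Benjamini-Hochberg adjustment over all genes tested. Serpine2 (protease nexin 1, an inhibitor of thrombin and the activators) lay below the filter on low counts, and Tfpi2 had 0 counts in all 4 libraries. Of the 7 members tested, 3 were thus higher and 1 lower. Over all 12478 genes tested, 39.6% were called, 19.2% higher and 20.4% lower, so calls as such were common and the count of 4 in 7 is to be read against that share. The median size of the log2 fold change was 1.10 over the 7 members and 0.21 over all genes tested. As the members were chosen with earlier results of these data known, this difference is no test of the pathway.

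Total counts were 20232277 and 18548478 in the PM2.5 libraries and 19562930 and 26206329 in the control libraries. A count of 3, used as the limit that a count of 0 allows, came to 0.145 and 0.158 CPM (counts scaled to library size) in the PM2.5 libraries and 0.158 and 0.116 CPM in the control libraries, counting error only. Of 12 epithelial markers, 11 averaged below 1 CPM and 6, among them Epcam and Krt18, were at 0 in every library, so most defining markers of the labelled epithelial type were absent or near 0. Their sum, nearly all from Krt14, was 21.5 and 19.96 CPM in PM2.5 libraries, against 53.4 and 51.2 CPM in control libraries. Krt14 was called lower, at 0.379 of the control level (edgeR adjusted p = 1.12e-06). Krt8, which was not tested, went the other way, with 9 and 20 counts in PM2.5 libraries, against 1 and 3 counts in control libraries. Of 7 mesenchymal markers 1 averaged below 1 CPM, and they summed to 3716 and 3863 CPM in PM2.5 libraries, against 4696 and 4519 CPM in control libraries. Of these markers 3 were called higher, Dcn (3.88-fold), Col3a1 (3.13-fold) and Col1a1 (1.39-fold), and 2 lower, Vim (0.669 of the control level) and Col1a2 (0.857). Tfpi, Thbd and Procr are also endothelial genes. The 7 endothelial markers summed to 0.436 and 0.843 CPM in PM2.5 libraries, against 1.05 and 0.504 CPM in control libraries; Cldn5, Emcn and Tie1 were at 0 throughout and none of the 7 was called. The 6 leukocyte and macrophage markers summed to 15.7 and 17.7 CPM in PM2.5 libraries, against 8.99 and 10 CPM in control libraries, nearly all from Cd68 and Lyz2, with Itgam at 0 and Ptprc at 0.103 CPM in PM2.5 and 0.065 CPM in control cells; Cd68 was called higher, 2.44-fold (edgeR adjusted p = 1.79e-04). None of 5 platelet markers was called. The part of these other markers in the results was not tested.

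**Figure D1:**
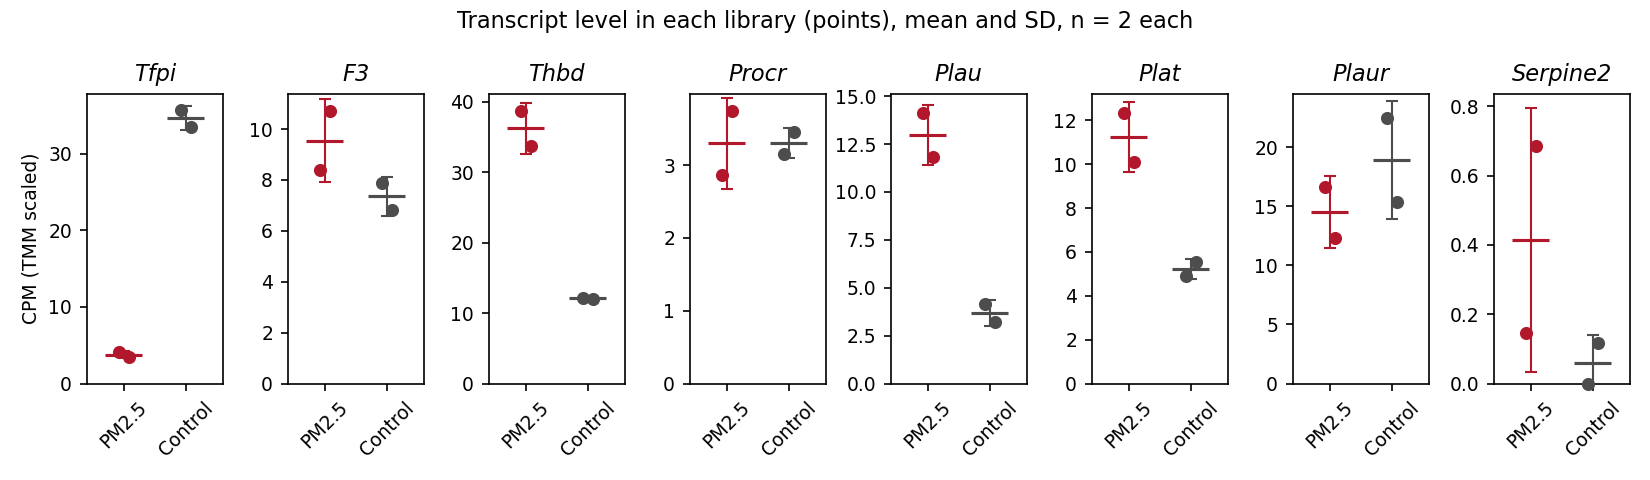
TMM-scaled CPM of the 8 detected genes in each library; points are libraries, lines are means and error bars SD (n = 2 per group), and each panel has its own linear axis from 0. PM2.5 libraries lie below both controls for Tfpi and above both for F3, Thbd, Plau, Plat and Serpine2, while the groups overlap for Procr and Plaur. The groups also did not overlap for 71.0% of all genes tested. Serpine2 rests on 3 and 13 counts in PM2.5 libraries, against 0 and 3 in control libraries.

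Within the tissue factor pathway, Tfpi had the widest change of the members tested. Tfpi (ENSMUSG00000027082, chromosome 2, 84263199 to 84307119, minus strand, GRCm39) had 85 and 65 counts in the PM2.5 libraries, against 680 and 865 counts in the control libraries. Scaled to library size by TMM, these were 4.12 and 3.42 CPM in PM2.5 libraries, against 35.7 and 33.5 CPM in control libraries. Both PM2.5 libraries thus lay far below both controls, and the replicates of each group were close together. Tfpi averaged 3.77 ± 0.491 CPM in PM2.5 cells and 34.6 ± 1.56 CPM in control cells (SD, n = 2 each), 9.13-fold lower in PM2.5. On the log2 scale its change was -3.19 (SE 0.12; edgeR, adjusted p = 7.88e-08). The ratio of summed PM2.5 to control counts, scaled to library size, was 0.11, with a 95% counting interval of 0.0922 to 0.13. By most negative log2 fold change it ranked 11 among the 12478 genes tested.

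F3, which encodes tissue factor (ENSMUSG00000028128, chromosome 3, 121517186 to 121528697, plus strand), had 173 and 203 counts in PM2.5 libraries, against 150 and 176 counts in control libraries. Its level was 8.38 and 10.7 CPM in PM2.5 libraries, against 7.88 and 6.82 CPM in control libraries. The groups did not overlap, but neither did those of 71.0% of all genes tested. The log2 fold change was 0.38 (SE 0.16, 95% interval 0.03 to 0.73), which did not pass the threshold (edgeR adjusted p = 0.0812). With a replicate block it was 0.38 and passed (adjusted p = 0.0485), and without PM2.5 replicate 1 it was 0.54 and passed (adjusted p = 0.0306), whereas without PM2.5 replicate 2 it was 0.19 (adjusted p = 0.512). Tfpi2, a second Kunitz-type inhibitor (ENSMUSG00000029664, chromosome 6, 3962595 to 3988919, minus strand), was also at 0 in the deposited total gene reads, a wider count that the file headers do not define, so its level was below the limits given above in each library.

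The ratio of tissue factor to inhibitor transcript did not overlap between the groups. Per length, on the deposited RPKM scale (counts over gene length and library size), F3 stood at 5.75 and 8.82 times Tfpi in the PM2.5 libraries, against 0.623 and 0.575 times Tfpi in the control libraries. F3 was thus the more abundant transcript in both PM2.5 libraries and the less abundant in both controls. An exact two-sided permutation test of 2 against 2 libraries cannot go below p = 0.333, which it gave here and for every other ratio reported below.

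Sequence upstream of these genes is shown because F3 and Tfpi encode opposing proteins, of which Tfpi fell and F3 did not pass the threshold. RefSeq start regions on GRCm38.p6, each 250 bases before to 50 bases after a start site, were found for 6 of the 9 members (F3, Tfpi, Tfpi2, Procr, Plaur and Serpine2). Tfpi has 2 annotated starts there, 2585 bases apart. They are printed 5′ to 3′ on the strand of the gene. Capitals mark matches, on either strand, to any of 6 motifs. The AP-1 site was searched as TGANTCA. The core site of the aryl hydrocarbon receptor was searched as GCGTG. A GC box was any run of the letters GGGCGG. The TATA box was searched for by the letters TATAAA. The antioxidant response core was any stretch that reads TGACNNNGC. The kappa-B consensus was searched under its usual definition.
Tfpi, first start, minus strand, chr2:84476710-84477009: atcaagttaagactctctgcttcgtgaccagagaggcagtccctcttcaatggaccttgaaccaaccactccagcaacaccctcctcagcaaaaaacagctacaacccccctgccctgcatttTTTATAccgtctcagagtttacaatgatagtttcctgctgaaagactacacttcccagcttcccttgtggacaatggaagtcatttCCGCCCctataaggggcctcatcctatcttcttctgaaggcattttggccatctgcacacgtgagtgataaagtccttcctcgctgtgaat
Tfpi, second start, minus strand, chr2:84474125-84474424: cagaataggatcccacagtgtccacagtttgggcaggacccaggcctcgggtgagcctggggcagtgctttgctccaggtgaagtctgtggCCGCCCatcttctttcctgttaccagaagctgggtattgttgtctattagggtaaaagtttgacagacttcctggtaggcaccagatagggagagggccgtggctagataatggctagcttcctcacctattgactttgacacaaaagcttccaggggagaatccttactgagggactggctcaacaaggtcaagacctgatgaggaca
F3, plus strand, chr3:121723287-121723586: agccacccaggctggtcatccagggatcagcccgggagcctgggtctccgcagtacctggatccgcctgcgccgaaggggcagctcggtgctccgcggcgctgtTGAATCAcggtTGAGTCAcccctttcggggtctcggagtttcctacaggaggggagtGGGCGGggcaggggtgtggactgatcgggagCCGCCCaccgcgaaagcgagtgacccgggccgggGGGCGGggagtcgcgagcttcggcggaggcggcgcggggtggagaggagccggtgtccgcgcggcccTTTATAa

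The F3 region held 2 AP-1 matches, beginning at positions -146 and -135 from the start site, 3 GC boxes and, on the opposite strand after the start, 1 TATA match. Of 32851 RefSeq regions of the same length, 7.81% held an AP-1 match and 35.7% a GC box. The first Tfpi region held 1 GC box and 1 TATA match on the opposite strand (13.6% of all regions hold that motif), and the second Tfpi region 1 GC box. Neither Tfpi region held an AP-1, aryl hydrocarbon receptor, antioxidant or kappa-B match; these occur in 7.81%, 32.4%, 12.4% and 4.51% of all regions. No printed matches overlapped. Single AP-1 matches also stood in the regions of Plaur, at position -69, Procr, where the AP-1 match at position -154 is also an antioxidant core match, and the third start of Tfpi2, where the AP-1 match at position -77 overlaps an aryl hydrocarbon receptor core at position -80. G and C made up 70.3% of the bases of the F3 region, against 48% and 52.3% in the Tfpi regions. A match describes letters in a window and is not evidence of binding.

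Of the receptors of the thrombin and protein C branch, Thbd rose and Procr did not pass the threshold. Thbd, which encodes thrombomodulin (ENSMUSG00000074743, chromosome 2, 148246386 to 148250108, minus strand), had 799 and 639 counts in PM2.5 libraries, against 232 and 310 counts in control libraries. Its level was 38.7 and 33.7 CPM in PM2.5 libraries, against 12.2 and 12.02 CPM in control libraries. The control libraries were nearly equal, and both PM2.5 libraries were well above them. The mean was 36.2 ± 3.57 CPM in PM2.5 cells and 12.1 ± 0.125 CPM in control cells (SD, n = 2 each). On the log2 scale the change was 1.58 (SE 0.099; edgeR, adjusted p = 2.16e-06). Every read that the deposited total gene reads list for Thbd was also in its raw count, 100% in all 4 libraries.

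Procr, which encodes the endothelial protein C receptor (ENSMUSG00000027611, chromosome 2, 155593037 to 155597391, plus strand), had 59 and 71 counts in PM2.5 libraries, against 60 and 89 counts in control libraries. These were 2.86 and 3.74 CPM in PM2.5 libraries, against 3.15 and 3.45 CPM in control libraries, and the groups overlapped. Its log2 fold change was -0.01 with a 95% interval of -0.51 to 0.49 (edgeR adjusted p = 0.978), so changes between 0.704- and 1.40-fold lie within the interval, which includes the spread between libraries. Per length, Thbd was at 5.81 and 3.86 times Procr in PM2.5 libraries, against 1.66 and 1.49 times Procr in control libraries. Thbd, Procr and Tfpi all lie on chromosome 2, in the order Tfpi, Thbd, Procr; of these Tfpi fell, Thbd rose and Procr did not pass the threshold.

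Both plasminogen activators rose. Plau, which encodes urokinase (ENSMUSG00000021822, chromosome 14, 20886728 to 20893453, plus strand), had 291 and 225 counts in PM2.5 libraries, against 79 and 83 counts in control libraries. Its level was 14.1 and 11.9 CPM in PM2.5 libraries, against 4.15 and 3.22 CPM in control libraries. The means were 12.97 ± 1.59 CPM in PM2.5 cells and 3.68 ± 0.661 CPM in control cells (SD, n = 2 each), with the groups well apart. The log2 fold change was 1.83 (SE 0.17; edgeR, adjusted p = 2.52e-05), the largest rise among the 7 members tested. Genes around Plau on chromosome 14 were themselves somewhat higher in PM2.5, with a median log2 fold change of 0.22 over the 100 nearest tested genes, and set against that median the change of Plau was 1.61.

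Plat, which encodes the tissue-type activator (ENSMUSG00000031538, chromosome 8, 23247743 to 23272860, plus strand), had 255 and 192 counts in PM2.5 libraries, against 93 and 143 counts in control libraries. Its level was 12.4 and 10.1 CPM in PM2.5 libraries, against 4.89 and 5.54 CPM in control libraries. Both PM2.5 libraries were clearly above the controls, at a mean of 11.2 ± 1.58 CPM in PM2.5 cells and 5.22 ± 0.463 CPM in control cells (SD, n = 2 each). The log2 fold change was 1.10 (SE 0.16; edgeR, adjusted p = 3.61e-04), and the nearest 100 tested genes on chromosome 8 had a median of -0.01. Plau stood at 1.22 and 1.25 times Plat per length in PM2.5 libraries, against 0.906 and 0.619 times Plat in control libraries, so urokinase was the more abundant activator transcript in both PM2.5 libraries and the less abundant in both controls.

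The receptor that holds urokinase at the cell surface did not pass the threshold. Plaur (ENSMUSG00000046223, chromosome 7, 24161909 to 24175393, plus strand) had 344 and 234 counts in PM2.5 libraries, against 427 and 396 counts in control libraries. These were 16.7 and 12.3 CPM in PM2.5 libraries, against 22.4 and 15.3 CPM in control libraries. The groups overlapped and the replicates of each lay far apart, with a log2 fold change of -0.36 (SE 0.18, 95% interval -0.77 to 0.04; edgeR, adjusted p = 0.139). It stayed short of the threshold under 13 of 17 alternative settings, among them DESeq2 (adjusted p = 0.163). With a replicate block it was -0.38 and passed (edgeR adjusted p = 0.00535), though nothing in the labels pairs the libraries. Without Control replicate 2 it was -0.63 and without PM2.5 replicate 1 it was -0.61, while without Control replicate 1 it was -0.08. Per length, Plaur was at 1.46 and 1.29 times Plau in PM2.5 libraries, against 6.70 and 5.91 times Plau in control libraries. Between 74.8% and 79.1% of the total gene reads of Plaur were in its raw count in PM2.5 libraries, against 74.3% and 77.2% in control libraries, the lowest share among the 7 tested members.

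Serpine2 (ENSMUSG00000026249, chromosome 1, 79771914 to 79838897, minus strand) was scarcely detected, with 3 and 13 counts in PM2.5 libraries, against 0 and 3 counts in control libraries. Scaled to library size, the ratio of summed counts was 6.03, with a 95% interval of 1.73 to 32.3 that covers counting error only. PM2.5 replicate 2 held 13 of the 16 counts of its group. Where a change of setting brought the gene into the test, its log2 fold change was 2.504 with no filter (edgeR adjusted p = 0.0516). It was 2.20 in total gene reads, where the gene passed the filter only through the PM2.5 libraries. Without PM2.5 replicate 1 it was 3.25, and without Control replicate 1 it was 1.75. Without Control replicate 2 it was 6.01, a fitted value against a control library with 0 counts that is no measure of size. With a library left out, Serpine2 passed the filter through PM2.5 replicate 2 alone, its highest library. These fits are therefore no test of its rise.

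**Figure D2:**
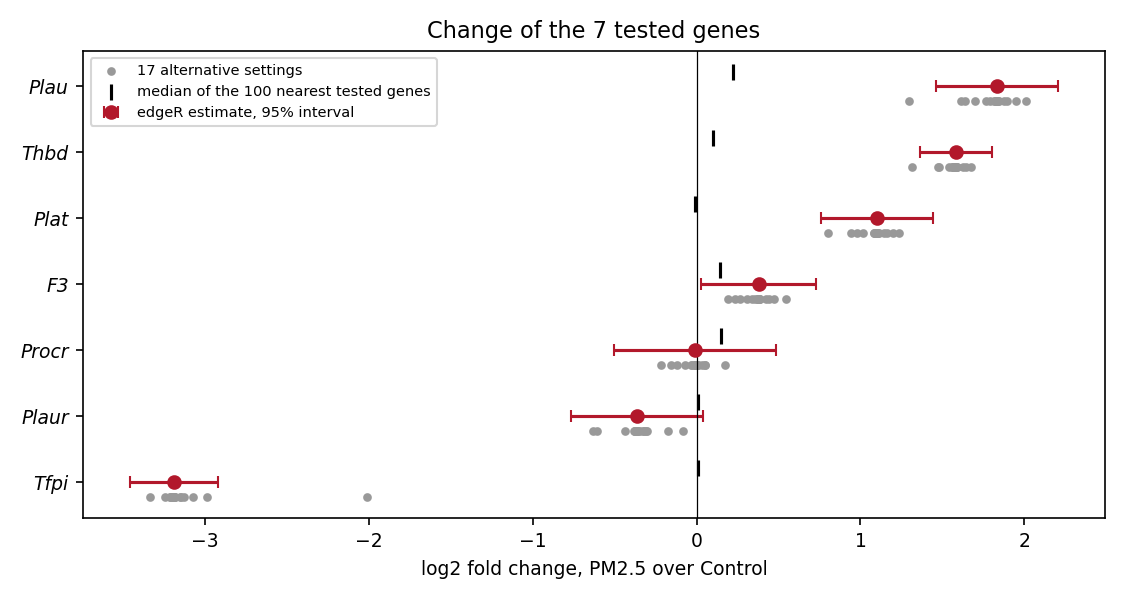
Log2 fold change, PM2.5 over control, of the 7 tested genes: red points with bars are edgeR estimates with 95% intervals, grey points the same quantity under 17 alternative settings, and black ticks the median of the 100 nearest tested genes. Tfpi at -3.19 lies far left of 0, Plau, Thbd and Plat lie right of it under every setting, and the intervals of Procr and Plaur include 0.

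The order of the genes by level differed between the groups. In PM2.5 cells the order per length was Thbd (8.21 RPKM), Plaur (6.41), Plau (4.63), F3 (4.31), Plat (3.76), Procr (1.75), Tfpi (0.603) and Serpine2 (0.152 RPKM). In control cells it was Plaur (8.23 RPKM), Tfpi (5.45), F3 (3.27), Thbd (2.71), Procr (1.72), Plat (1.72), Plau (1.30) and Serpine2 (0.0209 RPKM). Neighbours whose libraries overlapped were Plau with F3 and F3 with Plat in PM2.5 cells, and Procr with Plat in control cells; the other neighbours did not overlap over 2 libraries. Tfpi stood at rank 7 of the 8 detected genes in PM2.5 cells and rank 2 in control cells, and Thbd stood at rank 1 in PM2.5 cells and rank 4 in control cells. In bulk RNA, fewer cells with a transcript and less of it per cell cannot be told apart.

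**Figure D3:**
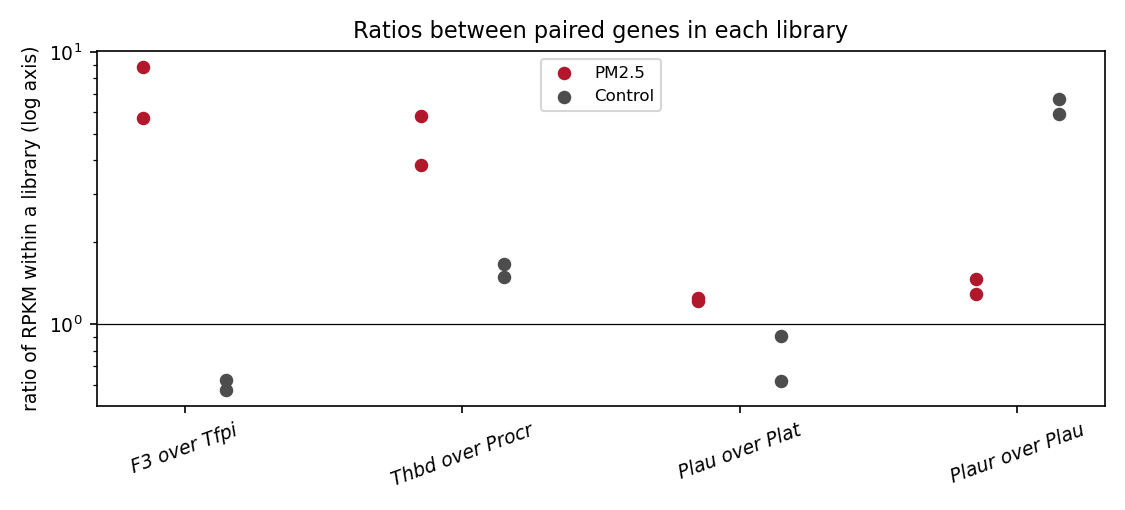
Ratio of RPKM between paired genes within each library, on a log axis; red points are PM2.5 libraries, grey points control libraries, and the line marks equal levels. F3 over Tfpi is 5.75 and 8.82 in PM2.5 libraries and 0.623 and 0.575 in control libraries, on opposite sides of the line.

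Among all tested genes with an established symbol, 3 had a profile over the 4 libraries nearest to that of Tfpi, the member with the widest change, by Euclidean distance of centred log2 CPM. They were Mpzl3 (distance 0.116; 0.125 CPM in PM2.5 and 1.89 CPM in control cells), Ptpn13 (0.171; 0.653 CPM in PM2.5 and 7.35 CPM in control cells) and Zfp791 (0.231), which had 0 counts in both PM2.5 libraries and 0.815 CPM in control cells. With 4 libraries in 2 groups, this distance mostly follows the size of the difference between groups in log2 CPM, where a small added count shrinks values near 0. The edgeR log2 fold changes were -3.85 for Mpzl3, -3.48 for Ptpn13 and -7.10 for Zfp791, against -3.19 for Tfpi. Mpzl3 and Zfp791 lay below the limit of 3 counts in PM2.5 cells on average, so their likeness to Tfpi is uncertain.

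Other genes of the same pathways were counted in 6 lists holding 60 genes, of which 25 were tested; 8 of these were higher and 3 lower, 32% and 12%, beside 19.2% and 20.4% of all genes tested. Their median log2 fold change was 0.13, against 0.01 over all genes tested. These lists, too, were chosen with earlier results of these data known. Among clotting factors, fibrinogen and vitamin K enzymes, 4 of 7 tested genes rose and 0 fell. F5 and Kng2, both among these 4, passed the filter on low counts only through the PM2.5 libraries, where they are high. Their place in this count is therefore no support for a rise of the list. F5, factor V, the cofactor of factor X in making thrombin, had 70 and 62 counts in PM2.5 libraries, against 6 and 6 counts in control libraries. Both PM2.5 libraries were far above the controls, with a log2 difference of 3.60 (SE 0.35). The ratio of its summed counts, scaled to library size, was 12.4 with a 95% counting interval of 6.89 to 24.7. Kng2, a kininogen, had 40 and 37 counts in PM2.5 libraries, against 2 and 2 in control libraries. For Kng2 the ratio of summed counts, scaled in the same way, was 21.8 with a 95% counting interval of 8.17 to 81.9. Its close relative Kng1 lies beside it on chromosome 16, so reads may be shared between them and these counts are uncertain.

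F13a1, the A chain of the fibrin-crosslinking factor XIII, averaged 13.9 ± 2.89 CPM in PM2.5 cells and 7.60 ± 1.31 CPM in control cells (SD, n = 2 each), with a log2 fold change of 0.85 (edgeR, adjusted p = 0.00287). The other call was Vkorc1, the vitamin K epoxide reductase, at 17.01 CPM in PM2.5 and 13.7 CPM in control cells (adjusted p = 0.0358), a call that ended with any library left out, with DESeq2 and against its 100 nearest tested genes; it was chosen after its value was seen. Fgb, Fgg, F9, F10, F11, F12 and F13b were at 0 in all libraries, and F7, the ligand of tissue factor, had 2 counts in 1 PM2.5 library and 0 in the rest. F2, prothrombin, had 1 count in all. The proteases that F3, Tfpi and Thbd act on, made mainly in the liver, were thus at or near 0 in these cells.

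None of the 4 tested anticoagulant genes passed the threshold, beside 39.6% called over all genes tested. Of the protease-activated receptors only F2r, the thrombin receptor PAR1, was tested, at 148 ± 2.11 CPM in PM2.5 cells and 138 ± 14.8 CPM in control cells (SD, n = 2 each; log2 fold change 0.10, edgeR adjusted p = 0.285), and F2rl1 was at 0 throughout. Without Control replicate 1 its log2 fold change was 0.21 and passed the threshold, and without Control replicate 2 it was -0.01.

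Of 7 genes listed as inhibitors of fibrinolysis, 1 was tested, and it fell, beside 20.4% lower over all genes tested. A single tested gene says nothing of the list. Serpinb6a, an intracellular serpin, averaged 153 CPM in PM2.5 and 187 CPM in control cells (log2 fold change -0.28, edgeR adjusted p = 0.00353), which did not pass without PM2.5 replicate 2.

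Plasminogen itself, Plg, had 2 and 2 counts in PM2.5 libraries, against 1 and 5 counts in control libraries. Of the 4 tested genes for plasminogen binding and activation, 1 rose and 2 fell, beside 19.2% higher and 20.4% lower over all genes tested. The plasminogen receptor Plgrkt averaged 36.8 CPM in PM2.5 and 29.2 CPM in control cells (log2 fold change 0.33, edgeR adjusted p = 0.0142). It lies on chromosome 19, where the 100 nearest tested genes had a median of 0.25, and set against that median its call ended, as it did without Control replicate 1 or PM2.5 replicate 1. The binding partners S100a10 and Eno1 had log2 fold changes of -0.22 (adjusted p = 0.0211) and -0.24 (adjusted p = 0.0172); the call on S100a10 ended without PM2.5 replicate 2, and that on Eno1 without Control replicate 2 or PM2.5 replicate 1. Both calls also ended when scaled to library size only. That on Eno1 ended as well with either RPKM setting and set against its 100 nearest tested genes, at -0.13 (adjusted p = 0.182). Eno1 has processed pseudogenes, so its counts are uncertain. Of 8 tested clearance receptors and urokinase receptor partners, 3 rose and 0 fell, to be read against the same shares of all genes tested. They were Lrpap1, the chaperone of the receptor that clears activator-inhibitor complexes (61.5 CPM in PM2.5 and 47.4 CPM in control cells, adjusted p = 0.00144), the sorting receptor Sort1 (3.06 CPM in PM2.5 and 1.58 CPM in control cells, adjusted p = 0.0142) and the integrin subunit Itgb3 (1.21 CPM in PM2.5 and 0.507 CPM in control cells, adjusted p = 0.0452). The calls on Sort1 and Itgb3 ended without PM2.5 replicate 2, and that on Itgb3 also without Control replicate 1 or PM2.5 replicate 1. Both ended with DESeq2 (adjusted p = 0.0688 for Sort1 and 0.185 for Itgb3), and that on Itgb3 with either RPKM setting.

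**Figure D4:**
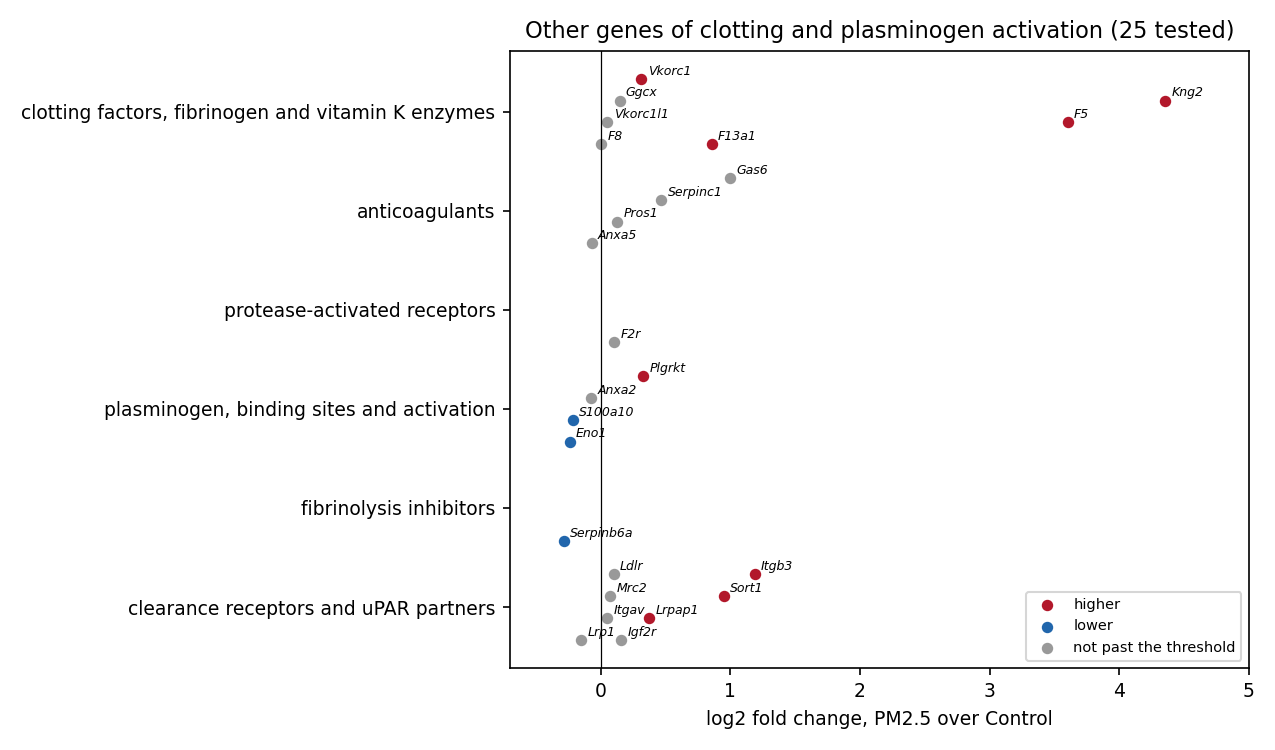
Log2 fold change, PM2.5 over control, of the 25 tested genes in 6 lists of clotting and plasminogen activation, with red for higher, blue for lower and grey for genes not past the threshold. F5 at 3.60 and Kng2 at 4.35 stand apart on the right. Serpinb6a, an intracellular serpin placed in the list of fibrinolysis inhibitors, lies left of 0.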

How the data were processed

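For the 2 PM2.5 and 2 control libraries the authors deposited raw counts, with no normalization, and RPKM values made from them. A wider count, the deposited total gene reads, is undefined in the file headers. Libraries were made with a stranded polyA kit, per the labels' protocols; the build is GRCm39, per the submitters' processing notes. No source used here names the aligner, the counting program, its strand setting or the annotation release.

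Counts were tested with edgeR 4.0.16 in R 4.3.3 (filterByExpr, TMM scaling, unpaired quasi-likelihood F test, Benjamini-Hochberg adjustment over 12478 genes, threshold 0.05). Each SE was the size of the log2 change divided by the root of its F statistic. Ratios of summed counts were scaled to library size after TMM, and that of total gene reads to the summed reads of each library. They carry exact conditional 95% intervals, for counting error only. The edgeR test was also run on simulated counts with known changes; no value of that run is used here. Alternatives were other scalings and filters, DESeq2 1.42.0, limma 3.58.1 (voom, and trend on log2(RPKM + 0.1) or log2(RPKM + 1)), a replicate block, leaving out each library, total gene reads, a minimum change of 1.5-fold, and a positional correction against the 100 nearest tested genes. The members and lists were chosen with earlier results of these data known. Named genes were all 9 members, up to 3 called genes of each list with the smallest p, and F2r and F2rl1; 1 further gene under this rule is not reported here and is left out of its list. Figures were drawn with matplotlib 3.10.9.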

Additional observations from a re-analysis of the deposited data

Results flagged for a closer look

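Serpine2 had 46 total gene reads over the PM2.5 libraries, above the 11 over the control libraries, in a deposited count outside the main comparison; the libraries held 11 and 35 reads in PM2.5 and 2 and 9 in control. Scaled to library size the ratio was 4.86 (95% interval of counting error, 2.48 to 10.4). Only 27.3% and 37.1% of these reads were in the raw count of Serpine2 in PM2.5 libraries, against 0% and 33.3% in control libraries. These shares were below those of every tested member.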

How the results depend on the processing

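The falls and rises of Tfpi, Thbd, Plau and Plat kept their direction and their call under all 17 alternatives, with log2 fold changes of -3.34 to -2.01, 1.31 to 1.67, 1.30 to 2.01 and 0.80 to 1.23. The smallest sizes came with log2(RPKM + 1), whose pseudocount shrinks low values. Among the members, 2 were lower with no filter and with the replicate block, where Plaur passed, and 3 to 5 were higher and 1 to 2 lower with each library left out. F3 also passed scaled to library size only, with no filter and with the block. Same-numbered libraries deviated from their group means with a correlation of 0.124 over genes; nothing in the labels pairs them. The log2 fold change of Procr turned positive with upper-quartile factors (0.033), library size only (0.052), log2(RPKM + 0.1) (0.0101) and log2(RPKM + 1) (0.00914), and ran from -0.21 to 0.17 with a library left out; that of F2r ran from -0.0099 to 0.21. Over all genes 2400 were higher and 2545 lower. With a library left out these were 1516 to 2299 and 1680 to 2578, and with a minimum change of 1.5-fold 401 and 114; DESeq2 called 1581 higher. Scaled to library size only, 62.0% of calls were higher, against 48.5%, and 57.7% with upper-quartile factors. Of the pathway genes, 5 were higher with DESeq2. With a minimum change of 1.5-fold 0 were lower and 2 higher, F5 and Kng2, which passed the filter only through the PM2.5 libraries. Scaled to library size only 1 was lower, and with a library left out 5 to 10 were higher and 1 to 4 lower. Except where the construction shows it, the cause was not tested. Ratios within a library do not depend on scaling. Serpine2 had 0 to 13 counts per library and Procr 59 to 89; the 95% interval from counting alone for the ratio of Procr was 0.774 to 1.26.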
